A study of Rattus norvegicus with 2 samples.

Results

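The regions described here are the peaks of histone H3 lysine 18 lactylation (H3K18la) that lie between genes but close to one. They were taken from the peak list of 1 chromatin immunoprecipitation (ChIP-seq) library by 3 criteria. The authors' annotation had to class the peak as intergenic, the centre of the peak had to lie 10000 bp or less from the nearest transcription start site (TSS), and that gene had not to be a numbered microRNA gene, which left out 26 peaks. Of 28706 peaks, 2940 met the rule (10.2%, 95% Wilson interval 9.90 to 10.6%), which is 24.9% of the 11803 intergenic peaks. All intervals below cover counting error within this library only.

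The rats were male Wistar rats in which the abdominal aorta had been constricted (AAC) by tying it, above the renal arteries, together with a wire of 0.7 mm, and the tissue was myocardium. Both labelled samples carry replicate number 3, the ChIP library and an input, and peaks of the ChIP library are the values used. Hearts from rats without the operation were not analysed here, and the labels give neither the rats' age nor how many hearts were used. The antibody is labelled by vendor and catalogue number, and its target was taken from the series title. With 1 library there is no replicate, so nothing below carries a replicate error and no difference was tested.

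H3K18la is a mark that cells place on histone H3 with a lactyl group derived from lactate. Like the acetylation of neighbouring lysines, it is known from promoters and from active enhancers. Sequence a few kilobases from a start site often holds proximal enhancers and the outer parts of marked domains that begin at the promoter. HOMER, the annotation program, gives a peak between genes to the gene with the nearest TSS, so the gene name attached to a peak is a label of position.

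The sequence beneath these peaks was not analysed here, since no rn6 genome was used. As a view of the start sites they flank, promoters are shown for 3 immediate-early genes, a class that cells switch on within minutes of a stimulus. They were picked after the values were seen, as the genes of that list that had an intergenic peak within 10 kb and the strongest promoter-class peaks: Junb, a subunit of the AP-1 transcription factor (promoter peak 8.07-fold), and Dusp6 and Dusp5, phosphatases that switch off the MAP kinase ERK (8.06-fold and 7.99-fold). Each sequence is the RefSeq window from 250 bases before to 50 after the start in build GRCr8, written 5′ to 3′ along the gene (chr19:40080876-40081175, plus strand for Junb, chr7:35979354-35979653, plus strand for Dusp6, chr1:262543524-262543823, plus strand for Dusp5). Capitals mark matches on either strand to the TATA box TATAAA, the GC box GGGCGG, the cyclic AMP response element TGACGTCA, the AP-1 site TGANTCA or the E-box CACGTG.
Junb: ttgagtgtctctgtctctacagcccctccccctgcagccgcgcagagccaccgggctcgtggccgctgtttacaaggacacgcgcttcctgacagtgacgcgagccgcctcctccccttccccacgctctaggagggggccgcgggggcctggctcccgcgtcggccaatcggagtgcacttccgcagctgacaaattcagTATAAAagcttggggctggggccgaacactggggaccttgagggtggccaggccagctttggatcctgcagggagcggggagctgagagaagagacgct
Dusp6: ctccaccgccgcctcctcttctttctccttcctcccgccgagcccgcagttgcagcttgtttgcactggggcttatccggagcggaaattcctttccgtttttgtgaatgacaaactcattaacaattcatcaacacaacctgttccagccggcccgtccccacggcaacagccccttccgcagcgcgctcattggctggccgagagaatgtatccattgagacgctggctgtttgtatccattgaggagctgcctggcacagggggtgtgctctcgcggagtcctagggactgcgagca
Dusp5: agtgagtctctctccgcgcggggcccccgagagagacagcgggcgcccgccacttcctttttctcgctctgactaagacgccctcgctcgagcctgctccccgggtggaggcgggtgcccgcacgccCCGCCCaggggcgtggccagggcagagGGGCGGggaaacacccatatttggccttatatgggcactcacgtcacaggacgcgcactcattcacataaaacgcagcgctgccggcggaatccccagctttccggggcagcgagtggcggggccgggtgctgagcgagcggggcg
Junb had 1 match, to the TATA box, and Dusp5 had 2, both to the GC box, while Dusp6 had none of the 5 motifs. No 2 of these matches overlap. Among 33469 promoter windows of this length, 14.2% held the TATA box, 33.1% the GC box, 1.83% the cyclic AMP response element, 7.33% the AP-1 site and 6.42% the E-box. The intergenic peaks lay outside these windows, with the strongest at 2053 bp upstream for Junb (4.92-fold), 1971 bp for Dusp6 (5.33-fold) and 6804 bp for Dusp5 (5.23-fold).

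Most of the 2940 peaks stood upstream of the gene they were named for. There were 2334 upstream (79.4%, 77.9 to 80.8%) and 606 downstream. The upstream share was 43.2% over all peaks, 60.4% over intergenic peaks at 10 to 100 kb and 79.8% over promoter-TSS peaks. The annotation calls a peak promoter-TSS up to about 1 kb before the start, so the nearest upstream peaks began at 1001 bp, and the nearest downstream peak lay at 1174 bp. Upstream counts were highest next to the promoter, with 542 peaks from 1 to 2 kb, 295 from 2 to 3 kb and 271 from 3 to 4 kb. They then declined to between 191 and 199 per kb from 6 to 10 kb, and 177 intergenic peaks followed from 10 to 11 kb, so the 10 kb limit falls on a gradual slope. Downstream, the count rose instead, from 27 peaks between 1 and 2 kb to 91 between 8 and 9 kb.

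The annotation classes differed between the 2 sides. From 1 to 10 kb upstream, 75.6% of the 3116 peaks were intergenic, and 20.6% were in introns. Over the same stretch downstream, where the gene itself lies, 17.2% of 3531 peaks were intergenic and 74.8% were in introns. A downstream peak is classed as intergenic only where it lies outside the annotated gene. These 4 shares count all peaks, microRNA neighbours included.

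**Figure D1:**
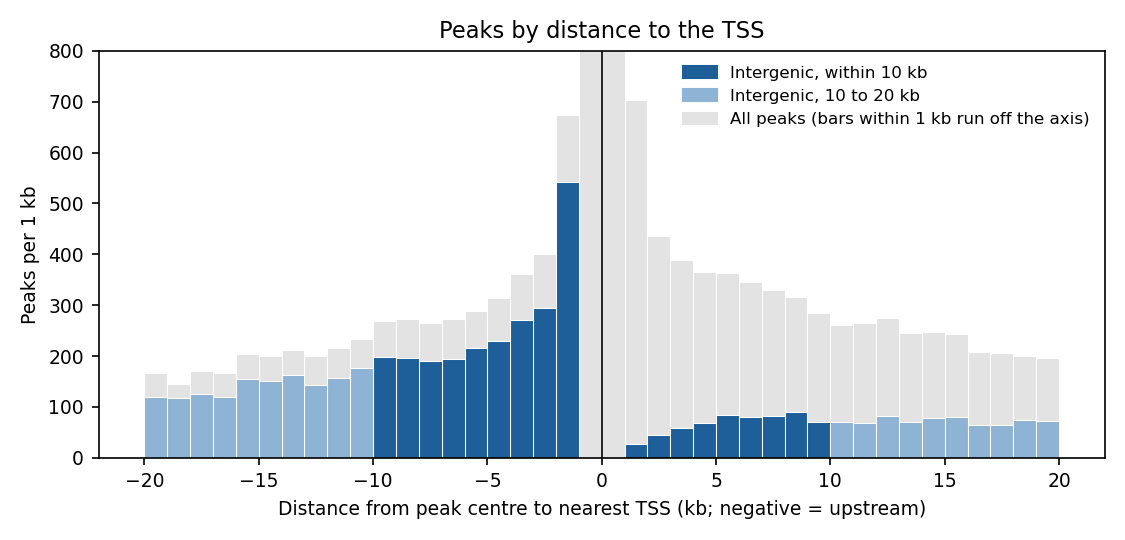
Peaks per 1 kb (vertical axis) by distance from peak centre to the nearest TSS (horizontal axis, kb). Dark blue bars are intergenic peaks within 10 kb, light blue bars those from 10 to 20 kb, and grey bars all peaks. Dark blue bars fall from 542 to 199 going upstream from 1 kb to 10 kb, and downstream they stay at or below 91.

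The kind of gene followed the side. Protein-coding genes were nearest to 2046 of the peaks (69.6%), and 88.5% of these stood upstream (87.0 to 89.8%). Long intergenic non-coding RNAs were nearest to 361 peaks, of which 65.7% stood upstream (60.6 to 70.4%). Small RNA genes, a group of short genes that includes spliceosomal U RNAs, small nucleolar RNAs and microRNA models without a number, had 399 peaks, and 54.9% stood upstream. Pseudogenes had 125, with 48.8% upstream. Fold enrichment, the authors' value for each peak, had a median of 4.18 next to protein-coding genes, 4.21 next to long non-coding RNAs, 4.23 next to small RNA genes and 4.44 next to pseudogenes.

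In strength these peaks were close to the rest of the list. Fold enrichment is the authors' ratio of ChIP signal to the background used in peak calling, and whether the input served as that background is not given in the sources used here. It had a median of 4.21 (quartiles 3.65 and 4.93, range 1.57 to 11.3). The same median was 4.15 for the 7564 intergenic peaks 10 to 100 kb from a TSS, 4.07 for the 1212 farther away, 4.09 for the 2807 promoter-TSS peaks and 4.11 for introns. At least 6-fold was reached by 209 peaks (7.11%, 6.23 to 8.09%), against a background of 6.31% of all peaks and 6.05% of intergenic peaks at 10 to 100 kb (5.54 to 6.62%). Among peaks with −log10 q of at least 5 that order turned, with 19.7% within 10 kb and 20.2% beyond, so no difference in strength is read from these shares.

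Within the 10 kb, median strength varied little with distance. Upstream peaks had a median of 4.19-fold from 1 to 2 kb, 4.21-fold from 2 to 5 kb and 4.21-fold from 5 to 10 kb. Downstream peaks had 4.07-fold, 4.21-fold and 4.23-fold in the same bands, the first of only 27 peaks. Of the upstream peaks, 7.46% reached 6-fold (6.46 to 8.59%), and of the downstream peaks 5.78% (4.18 to 7.93%), with overlapping intervals. Many peaks shared a value: the 2940 peaks had 820 distinct fold enrichments, and 56 peaks had the commonest, 3.94.

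**Figure D2:**
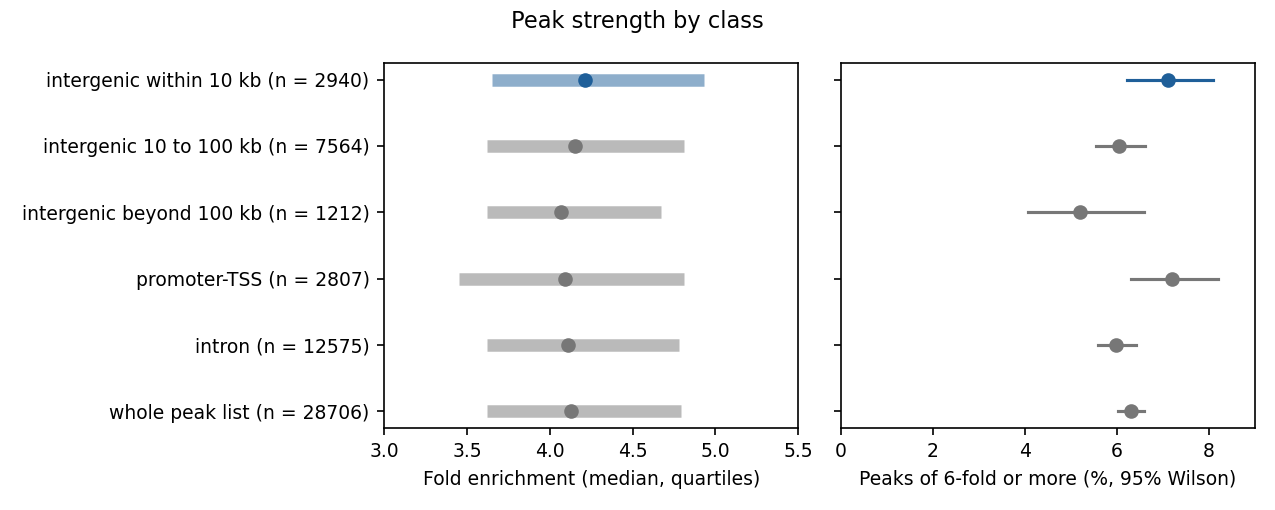
Left, median (point) and quartiles (bar) of the authors' fold enrichment per class of peak. Right, percent of peaks of 6-fold or more with its 95% Wilson interval. The intergenic peaks within 10 kb (blue) have a median of 4.21 and a share of 7.11%, beside 4.13 and 6.31% for the whole list.

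Width had a median of 390.5 bp (quartiles 264 and 626), against 375 bp for all peaks. There were 201 peaks at the narrowest width in the list, 200 bp, and 65 spanned at least 2 kb (2.21%, 1.74 to 2.81%), against a background of 1.79%. The 209 peaks of at least 6-fold had a median width of 1027 bp, while those below had 369 bp. Of the 209, 35 spanned at least 2 kb (16.7%), and these were 53.8% of the 65 wide peaks. Over the 2940 peaks, width and fold enrichment had a Spearman correlation of 0.355, and both values come from the same reads.

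The strongest of these peaks, 11.3-fold, lay 3214 bp upstream of Jade2, which encodes a subunit of a histone acetyltransferase complex (chromosome 10, 37313840 to 37315839, rn6). It was flanked by peaks of 5.35-fold at 1120 bp and 3.41-fold at 4519 bp, and no peak centre lay within 1 kb of the start. Next, also 11.3-fold, was a peak 9335 bp upstream of Xdh, the gene of xanthine dehydrogenase, an enzyme of purine breakdown (chromosome 6, 25220008 to 25221651). At Xdh the start itself was weaker, with promoter peaks of 4.23-fold and 4.49-fold, so the highest value stood at the outer edge of the 10 kb.

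A peak of 10.2-fold upstream of Mgst2, a membrane-bound glutathione transferase, was 4753 bp wide (chromosome 2, 140704129 to 140708881). Nr4a2, an orphan nuclear receptor that is an immediate-early gene, had 8.87-fold 2151 bp upstream (chromosome 3, 43120340 to 43122280) and 4.0-fold at its promoter. Cldn19, a tight junction gene, had the strongest downstream peak, 9.01-fold at 7185 bp (chromosome 5, 138305849 to 138308735). The unnamed non-coding models AC134224.3, AABR07009351.1 and AC098547.1 had 11.1-fold, 9.67-fold and 9.30-fold upstream peaks.

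Hook2, a gene of microtubule-based transport, was named for a peak of 9.60-fold 5171 bp upstream (chromosome 19, 26100564 to 26102770). Its own promoter peak was 3.86-fold. The start of Junb lay 6910 bp from the same peak, so Junb was only slightly farther away than Hook2, and Junb had an 8.07-fold promoter peak and a 4.92-fold intergenic peak on that side (26096131 to 26097488). For 4806 start sites the position followed from the distances of at least 2 peaks, and 166 of the 2940 peaks (5.65%) had such a start of another gene within 10 kb. This count is a minimum, since start sites with fewer peaks could not be placed.

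Per1, a core clock gene that glucocorticoids also induce, completed the 10 strongest with 8.76-fold (chromosome 10, 55681811 to 55687208). The peak was centred 2541 bp upstream and, at 5398 bp wide, reached over the start. Including Per1, 6 of the 2940 peaks covered the start of their own gene and were intergenic only by their centre. Among these were peaks at Mgst2, Per1, Mef2d, AABR07004269.5 and Klf3. All 6 were centred upstream, with 5 of the 6 at 6-fold or more and widths of at least 3345 bp. None of the 6 genes had a separate peak centred within 1 kb of the start. At 189 peaks (6.43%) the nearer edge came within 1 kb of the start.

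The widest peak, 8263 bp at 6.23-fold, lay between genes, 7814 bp downstream of the start of Polr3gl, an RNA polymerase III subunit gene (chromosome 2, 198694483 to 198702745). On the same stretch of chromosome 2, 3 peaks of 3.91-fold to 5.70-fold (198689532 to 198692183) stood downstream of Txnip, a glucose-responsive inhibitor of thioredoxin. Mef2d, a transcription factor gene of cardiac growth, had a peak of 6310 bp and 7.34-fold over its start (chromosome 2, 187507099 to 187513408). Frmd8 had 5311 bp at 6.03-fold, 8214 bp downstream, and Klf3, a Kruppel-like transcriptional repressor, had 5261 bp at 4.75-fold.

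The 2940 peaks were named for 1752 genes, of which 1262 were protein-coding. Most genes, 1100 (62.8%), had 1 such peak, 371 had 2, and 281 had 3 or more. Those 281 genes held 1098 peaks (37.3%). Both sides were occupied at 101 genes. For 525 genes (30.0%), 343 of them protein-coding, the intergenic peaks within 10 kb were the only peaks with that gene's name.

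Id1, an inhibitor of basic helix-loop-helix factors and a target of bone morphogenetic protein signalling, had 8 peaks, 5 upstream and 3 downstream. The strongest was 8.26-fold at 9687 bp upstream (chromosome 3, 148204353 to 148207354), while a 5394 bp peak at its start had 6.09-fold. Rhob, a small GTPase gene induced by stress, had 4 peaks on each side, from 3.66-fold to 5.83-fold, below its start peak of 6.29-fold. Cuedc1 had 8, all upstream and between 2784 and 9149 bp, with no peak within 1 kb of the start. Its highest values were 5.35-fold at 3504 bp and 4.97-fold at 9149 bp, and its lowest was 3.02-fold at 8249 bp. The unnamed model AABR07008904.1 also had 8, with 7 of them downstream.

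**Figure D3:**
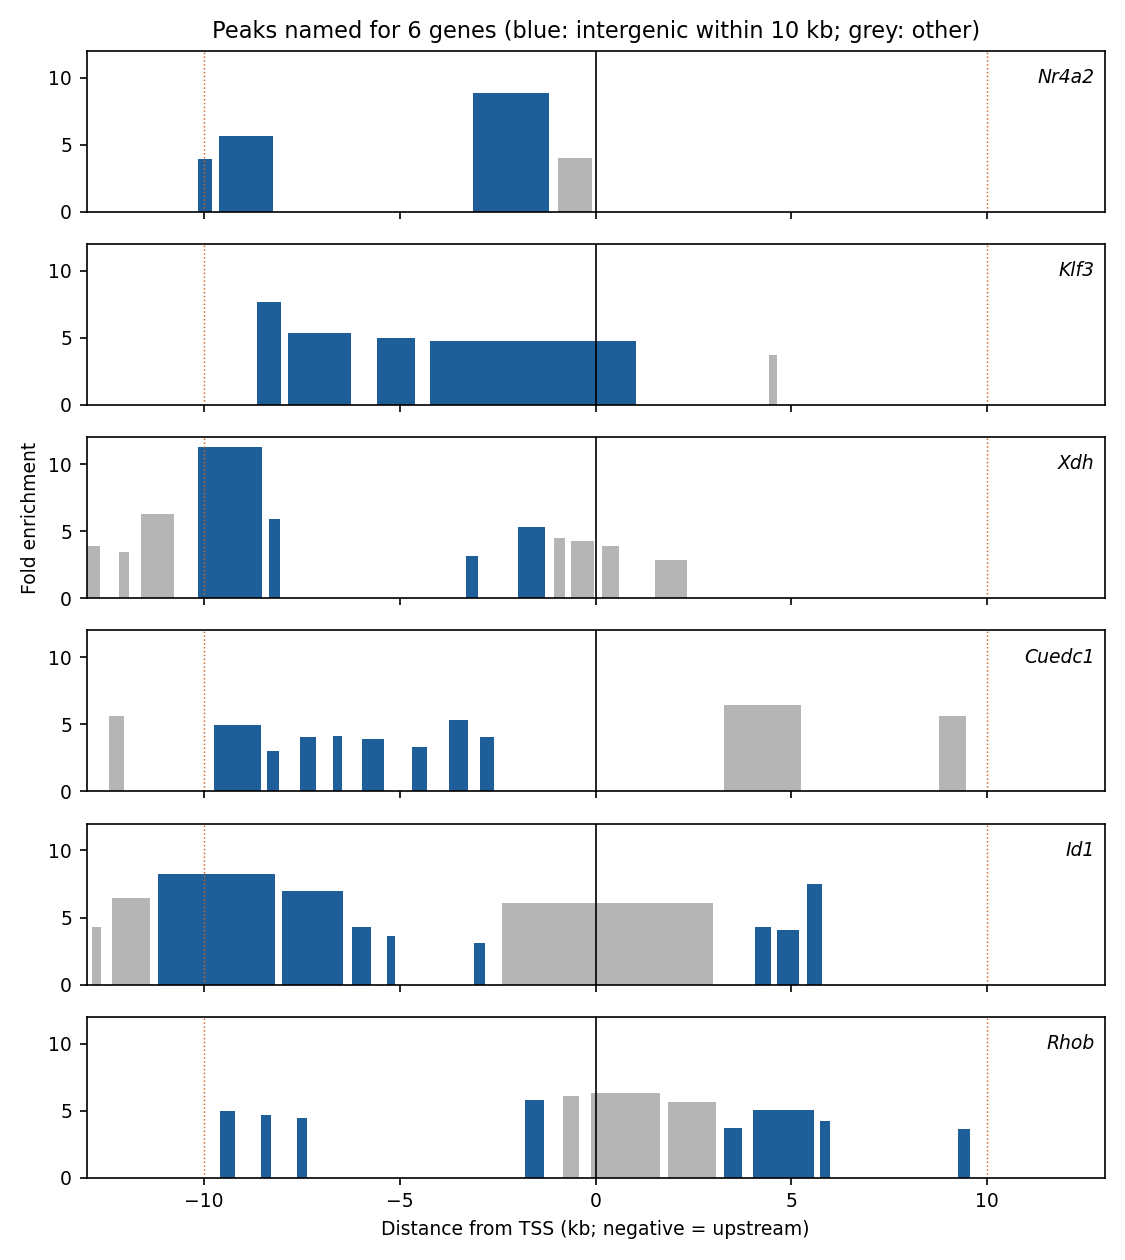
Fold enrichment (vertical axis) of peaks named for 6 genes, drawn to scale by distance from the TSS (horizontal axis, kb). Blue bars are intergenic peaks within 10 kb, grey bars other peaks, and dotted lines mark 10 kb. Cuedc1 has 8 blue bars upstream, Rhob has 4 on each side, and the blue bar of Klf3 crosses the start.

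Peaks near others were common throughout the list and about as common here. Another peak lay within 2 kb of 1968 of the 2940 (66.9%, 65.2 to 68.6%), against a background of 63.3% of all peaks. The share was 65.3% at 10 to 100 kb and 53.9% for promoter-TSS peaks. Peaks with a neighbour had a median of 4.24-fold and a width of 418 bp, and those without one 4.11-fold and 334 bp. When all peaks of the list were chained at gaps of up to 2 kb, the 2940 fell into 1972 runs. Of these, 972 were single peaks and 144 held 5 or more peaks of any class. Among the 1000 runs of 2 or more peaks, 397 were made of intergenic peaks within 10 kb alone. The run with most intergenic peaks within 10 kb, 12, was led by one named for a U4 RNA gene and spanned 18740 bp (chromosome 7, 114977295 to 114996034). A run of 8 such peaks alone, all named for Cuedc1, spanned 7132 bp (chromosome 10, 75486077 to 75493208).

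Intergenic peaks within 10 kb more often had company at the gene's start than intergenic peaks farther away, but less often than the list as a whole. The gene also had a peak centre within 1 kb of its TSS for 46.5% of the 2940 peaks (44.7 to 48.3%), against 34.1% of intergenic peaks at 10 to 100 kb (33.1 to 35.2%) and 23.5% of those beyond (21.2 to 26.0%). Over all peaks the share was 54.9%, which includes the peaks at starts themselves, and over intron peaks it was 60.2%. Among protein-coding genes alone, the shares were 54.0% within 10 kb and 43.3% at 10 to 100 kb. Upstream, the share fell with distance, from 64.9% at 1 to 2 kb to 46.9% at 2 to 5 kb and 41.8% at 5 to 10 kb. A stricter list lowered both, to 32.1% and 22.8% at −log10 q of at least 5. Gene density and gene length, which set how many peaks can be named for a gene, were not analysed here.

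Where a gene had both, neither kind of peak was generally the stronger. Of 753 such genes, the strongest intergenic peak within 10 kb exceeded the strongest peak at the start in 388 (51.5%), was weaker in 361 and tied in 4. Restricted to 314 genes with exactly 1 peak of each kind, the intergenic one was stronger in 158 (50.3%). Across the 753 genes the values had a Pearson correlation of 0.0652 and a Spearman correlation of 0.0384, which describes these genes only, since genes are not replicates. Both reached 6-fold at 22 genes. At 87 genes the intergenic peak was at least 1.5 times as high, and at 109 genes the start peak was.

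**Figure D4:**
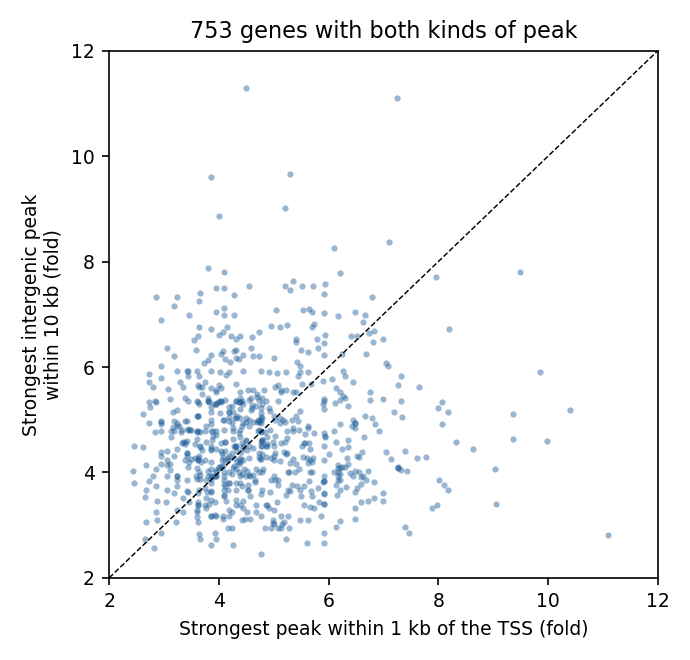
Fold enrichment of the strongest intergenic peak within 10 kb (vertical axis) against the strongest peak centred within 1 kb of the TSS (horizontal axis), for 753 genes (points). Points spread on both sides of the dashed line of equal values, with 388 above it.

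By chromosome, these peaks made up from 6.54% of all peaks on chromosome 15 (5.07 to 8.4%) and 6.64% on chromosome 11 to 13.2% on chromosome 7 and 13.4% on chromosome 10 (12.0 to 15.0%). The X chromosome had 29 of them among only 234 peaks, a share of 12.4% (8.77 to 17.2%). 

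The peaks nearest to a start were at 1001 bp upstream of AABR07004229.1 (4.13-fold) and Josd1 (2.56-fold) and 1002 bp upstream of Lrrfip1 (3.94-fold). Downstream, they were at 1174 bp for AABR07054319.2 (4.44-fold), 1180 bp for AABR07012575.1 (4.95-fold) and 1253 bp for ENSRNOG00000055183 (4.07-fold). Just inside the 10 kb limit, upstream peaks were named for Lmtk2 at 10000 bp (3.95-fold), Zfp326 at 9997 bp (4.23-fold) and Klhl24 at 9994 bp (7.24-fold). Just outside stood those of AABR07027371.1 at 10005 bp (4.56-fold), Galnt10 at 10025 bp (4.53-fold) and Hdac5 at 10029 bp (2.86-fold). Downstream, the last inside were 2 peaks named for 7SK at 10000 bp (5.03-fold) and 9950 bp (4.67-fold) and one for AABR07015007.1 at 9946 bp (5.53-fold). The first outside belonged to RGD1563294 at 10002 bp (4.14-fold), Tbcb at 10012 bp (4.16-fold) and LOC498675 at 10044 bp (2.73-fold).

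Gene lists describe which sets of genes had such flanking peaks named for them. The lists were chosen with earlier results of these data known, so their order is a description only. Over 23148 protein-coding genes of the RefSeq table, 5.05% had an intergenic peak within 10 kb and 27.1% a peak of any class. Only 78.8% of the annotation's names matched this table, so both shares can be too low for genes with well-matched names. The 5.05% counts 1168 genes, against 1262 by the annotation. Among the 6727 protein-coding genes of the annotation with any peak, 18.8% had one within 10 kb. Of the 2940 peaks, 1060 (36.1%) reached −log10 q of at least 5. The share of all genes with such a peak is not given here, so list counts at that threshold have no background. Requiring it lowered the count of many lists, as given with the larger lists below. It left 2 sarcomere genes, 3 cardiomyocyte markers, 3 chaperone genes, 1 gene each for calcium handling and fatty acid oxidation, and none for oxidative phosphorylation, autonomic signalling, fibroblast markers or hepatocyte markers. Intervals for lists are 95% Clopper-Pearson, and the lists are described, not tested.

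Immediate-early genes had the highest share of the 22 lists. An intergenic peak within 10 kb stood at 20 of 33 (60.6%, 42.1 to 77.1%), which is 71.4% of the 28 with any peak (51.3 to 86.8%). These 20 genes had 51 such peaks, with a median of 4.67-fold. Of the 51, 42 stood upstream, beside 88.5% of all such peaks next to protein-coding genes. After Nr4a2 came Klf4, a zinc finger factor, at 6.96-fold (2806 bp upstream), Ier2 at 6.44-fold (8698 bp downstream), Fos at 6.36-fold (9595 bp upstream, chromosome 6, 109290275 to 109291401) and Ier3 at 6.20-fold (7959 bp upstream).

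Fos, the partner of Jun in AP-1, had 4 intergenic peaks, the other 3 at 8756, 8331 and 1572 bp upstream with 4.73-fold, 4.11-fold and 4.43-fold, and its start peak was 4.59-fold. The distal peak was thus the highest of this gene's flank. Arc, known from neurons as a synaptic immediate-early gene, had 7 peaks upstream, from 3.41-fold at 3427 bp to 5.63-fold at 4003 bp, and its start peak was 3.69-fold, above the lowest of the 7 and below the other 6. No peak of any class was named for Atf3, Egr1, Egr2, Egr3 or Fosl1. The Ier2 of these peaks, which has 4 of the 51, is typed as a pseudogene in the annotation and was counted by its name. With −log10 q of at least 5 required, 18 of the 33 genes still had a peak.

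Glucocorticoid-induced genes, a list that shares Dusp1 and Gadd45b with the former, had 16 of 34 (47.1%, 29.8 to 64.9%), or 48.5% of the 33 with any peak. Per1 led, followed by the zinc finger gene Klf9 at 8.57-fold (6248 bp upstream, chromosome 1, 240900450 to 240904020). Klf9 had 3 more, of 7.5-fold at 1203 bp, 3.11-fold at 2952 bp and 4.57-fold at 8580 bp. Ddit4, an inhibitor of the growth kinase mTORC1, had 6 peaks, led by 6.59-fold at 6060 bp upstream and close to its start peak of 6.52-fold. Rhob and Txnip followed at 5.83-fold and 5.70-fold. Required to pass −log10 q of 5, the list fell to 6 genes. Clock genes had 6 of 21 (28.6%), or 33.3% of the 18 with any peak (13.3 to 59.0%), an interval that holds the background of 18.8%. They included Per1, Bhlhe40 at 7.05-fold (7692 bp downstream), Nr1d1 with 5 peaks and at most 5.23-fold, Per2 at 4.51-fold and Csnk1e at 4.43-fold.

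Endothelial markers came second, with 13 of 24 (54.2%, 32.8 to 74.4%), or 65.0% of the 20 with any peak. The count was 7 where −log10 q had to reach 5. Sox18, a transcription factor of vessel and lymphatic growth, had 6.73-fold at 2943 bp upstream, above 3.86-fold at its start. Egfl7, a secreted vessel factor, had 6.54-fold at 4645 bp, below 7.0-fold at its start. The VEGF receptor Flt1 had 5.93-fold at 1461 bp, above 4.44-fold at its start. Klf2, the flow-responsive factor that is also on the immediate-early list, had 5.57-fold at 1520 bp with 3 further peaks downstream. Tal1 had 5.35-fold at 3286 bp, above 4.04-fold at its start. Eng, a TGF-β co-receptor, had 6 peaks, from 3.26-fold to 4.49-fold, all below its start peak of 6.35-fold. The start peak was also the stronger at Fli1, Tie1, Nos3, Sox17 and Ets1, and the weaker at Cdh5 and Cldn5. No peak was named for Pecam1, Emcn, Lyve1 or Plvap.

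Genes of hypertrophic growth had 14 of 42 (33.3%, 19.6 to 49.5%), or 48.3% of the 29 with any peak (29.4 to 67.5%). All 22 of their peaks stood upstream, where 88.5% of all those next to protein-coding genes also stood. The 22 had a median of 3.96-fold. At −log10 q of at least 5 the count was 7 genes. Gdf15, a stress cytokine, had a single peak of 7.78-fold at 3231 bp upstream (chromosome 16, 20551779 to 20552550). Mef2a, the relative of Mef2d, had a single peak of 6.29-fold at 1184 bp, and the calcineurin-regulated factor Nfatc3 had 5.56-fold at 2671 bp. Myh7, the β-myosin heavy chain, had 3 upstream peaks of 4.61-fold at 3363 bp, 4.96-fold at 4695 bp and 5.38-fold at 9334 bp, rising away from a 4.11-fold start peak. Gata4, a core cardiac factor outside the 5 strongest, had 4 upstream peaks of 3.64-fold to 4.65-fold and none at the start. Nppa, Nppb, Acta1 and Myh6 had no peak of that name.

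Cardiac sarcomere genes had 7 of 30 (23.3%, 9.93 to 42.3%), or 29.2% of the 24 with any peak (12.6 to 51.1%). That interval holds the background of 18.8%, and none of their 14 peaks reached 6-fold. After Myh7 these were Flnc at 4.91-fold, the ventricular light chain Myl2 at 4.79-fold (7933 bp upstream, against 3.74-fold at the start), Actc1 at 4.65-fold and Myl3 at 4.36-fold. Flnc had 2.95-fold at the start, while Actc1 and Myl3 were stronger there, at 5.25-fold and 4.74-fold. Calcium handling and ion channel genes had 3 of 32 (9.38%), or 16.7% of the 18 with any peak (3.58 to 41.4%). These were the calcium pump Atp2a2 at 5.07-fold (9087 bp), Kcnq1 at 3.80-fold and Kcnj2 at 3.44-fold.

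Mitophagy and autophagy genes, which the series title concerns, had 6 of 40 (15.0%, 5.71 to 29.8%), or 25% of the 24 with any peak (9.77 to 46.7%), an interval that holds the background of 18.8%. At −log10 q of at least 5 only 2 of the 6 were left. Map1lc3b, an autophagosome protein, had 6.76-fold at 1502 bp upstream and 5.69-fold at its start. The receptor Bnip3 had 6.33-fold at 5994 bp and 3.81-fold at 8344 bp. The other 4 were weak, with the adaptor Sqstm1 at 3.86-fold, Wipi1 at 3.85-fold, Atg13 at 3.74-fold and Vdac1 at 2.73-fold. Sqstm1 and Vdac1 were stronger at the start, at 4.95-fold and 5.23-fold.

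Glycolysis and lactate genes had 6 of 34 (17.6%, 6.76 to 34.5%). That is 27.3% of the 22 with any peak (10.7 to 50.2%), an interval that holds the background of 18.8%. Pdha1, the X-linked subunit of pyruvate dehydrogenase, had 7.08-fold at 9633 bp upstream (chromosome X, 37319880 to 37320412). Its inhibitory kinase Pdk1 had 3 peaks up to 5.35-fold, and Gpi, Pfkm and Pfkfb3 had 5.25-fold, 4.88-fold and 4.51-fold. Fatty acid oxidation had 5 of 30 (16.7%), or 21.7% of the 23 with any peak (7.46 to 43.7%), which also holds 18.8%. The fatty acid binding protein Fabp3 led at 6.30-fold (8917 bp), followed by Ech1 at 4.10-fold, Slc25a20 at 3.97-fold, Cpt1a at 3.59-fold and Hadhb at 3.20-fold.

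Oxidative phosphorylation had 2 of 35 (5.71%, 0.700 to 19.2%), Ndufa5 at 4.70-fold and Cox8b at 3.18-fold, and 21 of the 35 had a peak at the start. The share is near the 5.05% of all protein-coding genes. Of the 21 with any peak it is 9.52% (1.17 to 30.4%), an interval that holds the background of 18.8%. Housekeeping genes were alike, with 2 of 30 (6.67%) and 14 with a peak at the start. One was β-actin (Actb) at 4.63-fold, below 9.37-fold at its start. No intergenic peak within 10 kb stood at any of 26 lysine acylation enzymes and readers (0%, 0 to 13.2%), of which 9 had a peak elsewhere. Over those 9 the interval was 0 to 33.6%, which also holds 18.8%.

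Chaperone and stress genes had 5 of 33 (15.2%), or 23.8% of the 21 with any peak (8.22 to 47.2%), an interval that holds the background of 18.8%. The constitutive chaperone Hspa8 had 7.87-fold at 2136 bp upstream against 3.81-fold at its start. Hspb1 had 6.48-fold at 8067 bp against 5.4-fold. Sesn2, Hsp90aa1 and Hspa4 had 5.44-fold, 4.70-fold and 4.37-fold. Hsp90aa1 and Hspa4 were stronger at the start, at 5.93-fold and 5.03-fold. Inflammatory signalling had 8 of 28 (28.6%, 13.2 to 48.7%), led by Socs3, a feedback inhibitor of cytokine signalling, at 5.40-fold (4048 bp downstream), with Cxcl1, Nfkbia, Il1r1 and Nfkb1 from 4.48-fold to 3.83-fold. Only 1 of these 8 kept a peak at −log10 q of at least 5. Autonomic signalling had 2 of 32 (6.25%), among them the adrenergic receptor Adrb1 at 4.58-fold, its only peak.

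Marker lists checked the labelled tissue. Endothelial markers, described above, had the highest shares of these lists, with a peak of any class at 20 of 24 and an intergenic one within 10 kb at 13. Cardiomyocyte markers had a peak of any class at 15 of 20 and an intergenic one within 10 kb at 6 (30.0%, 11.9 to 54.3%), of which Fabp3, Myh7, Myl2, Actc1 and Myl3 were strongest. Of the 15 with any peak this was 40.0% (16.3 to 67.7%), an interval that holds the background of 18.8%. Of the defining cardiomyocyte genes, Myh6, Nppa, Ryr2, Tnnc1 and Ttn had no peak of that name. Fibroblast and matrix markers had 4 of 24 (Sparc, Vim, Tcf21 and Col6a1, at most 4.26-fold), and smooth muscle and pericyte markers 1 of 14, Mcam at 4.51-fold. A peak of any class stood at 10 of these 24 and 8 of these 14. Immune cell markers had 1 of 24, Cd79a at 7.5-fold (6053 bp downstream), its only peak, and 21 of the 24 had no peak of any class. Hepatocyte markers had 1 of 16, Ttr at 3.83-fold, and neuron and glia markers had 0 of 15 (interval 0 to 21.8%). In tissue that mixes cell types, marks on few cells and weak marks on many cannot be told apart.

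**Figure D5:**
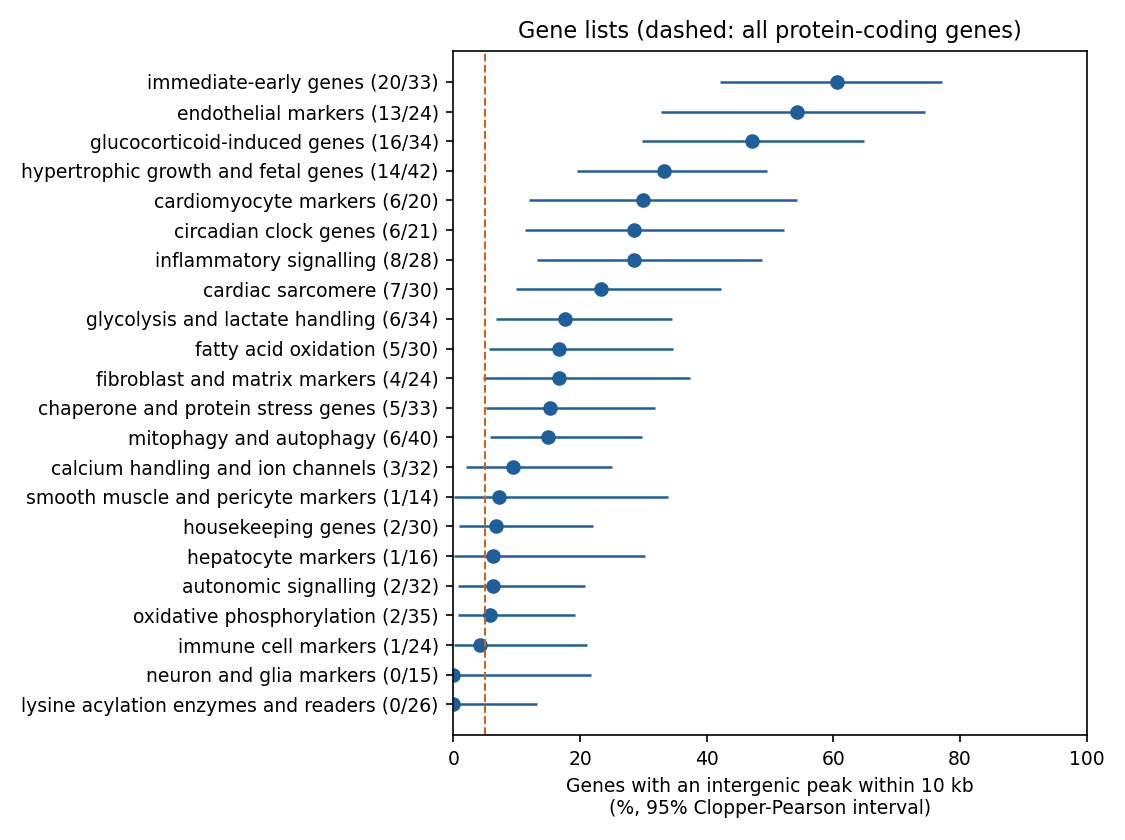
Percent of genes in each of 22 lists with at least 1 intergenic peak within 10 kb (points, horizontal axis) and the 95% Clopper-Pearson interval (lines). Counts stand beside the list names, and the dashed line is the 5.05% of all protein-coding genes. Genes without any peak are counted in both, and gene names that could not be matched can set the line too low. Immediate-early genes (60.6%), endothelial markers (54.2%) and glucocorticoid-induced genes (47.1%) stand highest. The lists were chosen with earlier results of these data known.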

How the data were processed

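ChIP-seq peaks of 1 library were analysed. Per the submitters' processing notes, the tools included Bowtie2, MACS2 and HOMER with the build rn6, and no version is given. The threshold appears to be q 0.05, per the file headers. Fold enrichment is a ratio the authors deposited, and q values were deposited as −log10. The score the authors deposited restates −log10 q (28706 of 28706 peaks) and was not used. Sequencing depth is unknown, and 27 peaks had no annotation.

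Peaks were joined to the annotation by name, with Python 3.11.15, pandas 2.3.3 and SciPy 1.17.1. Coordinates are 1-based. Scripts were tested on simulated data. Without replicates, nothing was tested. Shares have Wilson or, for lists, Clopper-Pearson intervals at 95%. Gene names were matched to current or older symbols of the GRCr8 RefSeq table (78.8% of 8094 names), which also gave the protein-coding background. None of its coordinates were set against the peaks, and the printed promoters are RefSeq GRCr8 windows. The peaks and gene lists were chosen with earlier results of these data known. Named were the 10 strongest and 5 widest peaks, the 5 genes with most peaks, up to 5 genes per list, and peaks at the limits, with exceptions stated; some are not reported here. Tried as alternatives were thresholds, distance limits, merging and microRNA neighbours.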

Additional observations from a re-analysis of the deposited data

How the results depend on the processing

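The upstream share stayed within its interval at −log10 q of at least 5 (79.7%), at fold enrichment of at least 4 (79.0%) and after merging (80.4%), and moved with the limit, to 87.1% at 5 kb and 73.9% at 20 kb. Keeping microRNA neighbours moved none of the 7 measures recomputed. The number of peaks was 1060 at −log10 q of at least 5, 1733 at fold enrichment of at least 4, 1537 with a 5 kb limit and 5093 with 20 kb. At −log10 q of at least 5, the median fold enrichment was 5.23, the median width 616 bp and the share of 6-fold peaks 19.7%, as that filter removes weak peaks. At fold enrichment of at least 4 the median width was 459 bp. Merging peaks at gaps of up to 500 bp gave a median of 4.37-fold, a width of 478 bp and 10.9% at 6-fold or more. The share with a peak at the gene's start was 32.1% at −log10 q of at least 5, 33.9% at fold enrichment of at least 4, 52.3% with 5 kb, 42.8% with 20 kb, 44.6% after merging and 29.7% with the promoter-TSS class. The share with another peak within 2 kb was 48.3% at −log10 q of at least 5, 52.9% at fold enrichment of at least 4, 69.4% with 5 kb, 46.6% after merging and 76.4% for a gap of 5 kb. Genes of all lists with a peak numbered 117, and 57 at −log10 q of at least 5.

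Chosen after seeing the data, the difference from intergenic peaks at 10 to 100 kb was 12.4 percentage points for a peak at the start, and 9.26 at −log10 q of at least 5. For the share of 6-fold peaks it turned from 1.05 to -0.531 points there, and for median fold enrichment from 0.055 to -0.0367; the cause was not tested. Over single lists and these differences, 32 alternatives stayed near the reported value, 19 moved and 2 reversed. Over the main measures and the count of genes of all lists, 19 alternatives stayed near the reported value and 25 moved. Repeats could not be examined, because the detailed annotation names only the class. No sequence of the peaks was read, so their base content was not run. No paired analysis was possible because the input library, which has the same replicate number, was not analysed here.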
